A study of Arabidopsis thaliana with 16 samples.

Results

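The CYP707A genes encode the enzymes that break down abscisic acid (ABA), and their transcript levels were followed in whole Arabidopsis thaliana seedlings under salt and osmotic stress. The family has 4 members, CYP707A1 (AT4G19230), CYP707A2 (AT2G29090), CYP707A3 (AT5G45340) and CYP707A4 (AT3G19270). They were taken by locus from the 32833 genes counted, and all 4 passed the filter on low counts. Poly(A) RNA was sequenced from the wild type Col-0 and from seu-6, a mutant allele of SEUSS (SEU), the gene of a co-regulator of transcription. In one experiment seedlings aged 14 days spent 15 min in liquid half-strength MS medium, with 300 mM NaCl or without it (mock). In the other, seedlings aged 10 days spent 6 h in the same medium, with 250 mM sorbitol or without it. Each of the 8 groups of genotype, medium and time has 2 replicates, 16 libraries in all. Every seedling had therefore been moved into liquid medium, the mocks included, and no group was sampled before that move.

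ABA is the plant hormone that closes stomata, keeps seeds dormant and switches on genes for tolerance of water deficit. CYP707A enzymes are cytochrome P450 mono-oxygenases that hydroxylate the ring methyl group of ABA, after which the product closes into phaseic acid, which has much weaker hormone activity. The amount of ABA in a tissue is set by this step, by synthesis, in which the dioxygenase NCED3 is the main stress-regulated enzyme, and by storage as a glucose ester. In Arabidopsis, CYP707A2 is best known for lowering ABA in imbibed seeds, CYP707A1 for seed development and guard cells, and CYP707A3 for vegetative tissue recovering from drought. Least is known of CYP707A4.

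The 4 genes lie on 4 chromosomes and do not overlap another annotated gene in the TAIR10.1 annotation, whose coordinates are used here. CYP707A1 spans chr4:10521259-10523961 on the plus strand. CYP707A2 spans chr2:12494826-12499723, CYP707A3 spans chr5:18368532-18371021 and CYP707A4 spans chr3:6673689-6676521, all on the minus strand. CYP707A1 and CYP707A3 are the closest pair, with 78.7% of aligned coding positions identical and a longest shared run of 44 bases. The other pairs are between 57.5% and 62% identical, with shared runs of 14 to 23 bases. Untranslated regions were not compared, and reads that could be assigned to either of a pair were not examined.

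The 250 bases before each annotated start are shown for every member, and their part in the responses was not tested. Capitals mark every match, on either strand, to ACGTG (the core of the ABA-responsive element), CACGTG (the G-box) and TTGAC (the core of the W-box), 3 short motifs bound by plant stress transcription factors. Each sequence is written 5′ to 3′ along the gene's own strand. They lie at chr4:10521009-10521258 (plus strand), chr2:12499724-12499973 (minus), chr5:18371022-18371271 (minus) and chr3:6676522-6676771 (minus) of TAIR10.1, in the order of the gene names.
CYP707A1: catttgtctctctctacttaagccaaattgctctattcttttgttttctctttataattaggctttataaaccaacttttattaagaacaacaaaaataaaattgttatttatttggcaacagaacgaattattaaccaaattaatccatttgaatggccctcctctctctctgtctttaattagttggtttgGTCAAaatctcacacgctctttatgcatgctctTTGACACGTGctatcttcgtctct
CYP707A2: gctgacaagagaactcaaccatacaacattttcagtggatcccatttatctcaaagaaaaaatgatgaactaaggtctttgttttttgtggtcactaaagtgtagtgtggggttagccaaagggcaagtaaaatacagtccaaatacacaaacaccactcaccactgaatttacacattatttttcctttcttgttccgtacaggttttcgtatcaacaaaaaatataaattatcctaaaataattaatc
CYP707A3: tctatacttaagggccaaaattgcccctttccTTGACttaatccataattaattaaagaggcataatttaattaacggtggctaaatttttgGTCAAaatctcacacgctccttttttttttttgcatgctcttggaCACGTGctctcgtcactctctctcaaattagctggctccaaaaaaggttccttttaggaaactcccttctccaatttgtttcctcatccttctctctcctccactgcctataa
CYP707A4: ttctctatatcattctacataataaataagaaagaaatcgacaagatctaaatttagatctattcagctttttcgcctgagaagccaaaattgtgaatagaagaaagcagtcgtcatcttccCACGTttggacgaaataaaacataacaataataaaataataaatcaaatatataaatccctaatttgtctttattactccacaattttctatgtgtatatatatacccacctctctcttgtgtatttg

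CYP707A1 and CYP707A3 each hold 1 CACGTG, which contains ACGTG on both strands, and 2 TTGAC. In CYP707A1, one TTGAC runs directly into the CACGTG, sharing its final C. CYP707A4 holds 1 ACGTG and CYP707A2 none of the motifs searched. No window held CCGAC, the core of the dehydration-responsive element, or CGCGTT, the rapid stress response element. For comparison, 27443 windows of this length were taken before all annotated protein-coding genes of the nuclear chromosomes. Of these, 6.49% hold CACGTG, 22.9% ACGTG, 44.9% TTGAC, 12% CCGAC and 2.59% CGCGTT. CYP707A1 and CYP707A3 also share a run of 23 bases around one of their TTGAC matches, tttgGTCAAaatctcacacgctc, which begins 61 bases before the start of CYP707A1 and 162 bases before that of CYP707A3 and is found in 2 of all the windows. The other pairs share runs of 9 or 10 bases at most. These are matches of letters and no binding was measured.

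The libraries hold between 39756463 and 42676953 gene counts. SEU was at 40.6 to 54.5 CPM (counts per 1000000 gene counts, with libraries scaled by TMM) in the 8 Col-0 libraries and at 0.401 to 1.16 CPM in the 8 seu-6 libraries. All 7 photosynthetic and all 8 root markers examined were detected in every library, as in whole seedlings. The seu-6 6 h mock libraries stand apart: 5 seed storage and oil body transcripts sum to 126 and 128 CPM there and to at most 1.49 CPM in every other library. Results that rest on that group are the sorbitol response of seu-6, the genotype difference in the 6 h mock, the genotype difference in the sorbitol response and the seu-6 mocks, and the part of these seed transcripts in them was not tested. Levels below are CPM on a scale common to the 16 libraries, given as replicate 1 then replicate 2. Changes are log2 fold changes with their standard error (SE), and a gene is said to rise or fall where edgeR's adjusted p over all genes tested is under 0.05.

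CYP707A3 had the most transcript of the family in the 15 min experiment. In Col-0 it stood at 137 and 142 CPM in the 15 min mock, 75.5 and 75.7 CPM under NaCl, 10.2 and 9.31 CPM in the 6 h mock and 11.3 and 14.1 CPM under sorbitol. In seu-6 the same groups stood at 105 and 111, 93.3 and 92.4, 13.0 and 15.1, and 7.95 and 9.79 CPM. The 4 groups of the 15 min experiment thus lay far above the 4 groups of the 6 h experiment and did not overlap one another. Among the 6 h groups, the seu-6 mock overlapped Col-0 under sorbitol, and the Col-0 mock overlapped seu-6 under sorbitol.

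CYP707A1 had its highest level under sorbitol. In Col-0 it stood at 28.2 and 26.3 CPM in the 15 min mock, 16.6 and 17.6 CPM under NaCl, 7.11 and 6.46 CPM in the 6 h mock and 38.1 and 39.3 CPM under sorbitol. In seu-6 it stood at 22.4 and 22.6, 11 and 9.35, 7.04 and 6.59, and 34.7 and 33.0 CPM. The order from highest to lowest was sorbitol, 15 min mock, NaCl and 6 h mock. Col-0 lay above seu-6 in each of the first 3, and only the 6 h mocks of the genotypes overlapped.

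CYP707A2 was lower than CYP707A1 in every group. In Col-0 it stood at 7.29 and 7.74 CPM in the 15 min mock, 2.44 and 2.46 CPM under NaCl, 3.66 and 3.89 CPM in the 6 h mock and 18.4 and 19.1 CPM under sorbitol. In seu-6 it stood at 5.14 and 6.17, 1.75 and 1.73, 1.90 and 1.91, and 7.45 and 5.73 CPM. Each seu-6 group lay below the Col-0 group of the same medium and time. The 2 libraries of seu-6 under sorbitol spanned a range that overlapped both 15 min mocks.

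CYP707A4 was the least abundant member per kilobase of exon in every group by its mean, with 15 to 221 counts per library. In Col-0 it stood at 0.603 and 0.370 CPM in the 15 min mock, 1.2 and 0.887 CPM under NaCl, 0.969 and 1.2 CPM in the 6 h mock and 3.22 and 5.24 CPM under sorbitol. In seu-6 it stood at 1.14 and 1.03, 0.747 and 1.80, 1.07 and 0.781, and 3.24 and 3.25 CPM. The sorbitol groups lay above all others and the Col-0 15 min mock below all others, and every other pair of neighbouring groups overlapped.

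**Figure D1:**
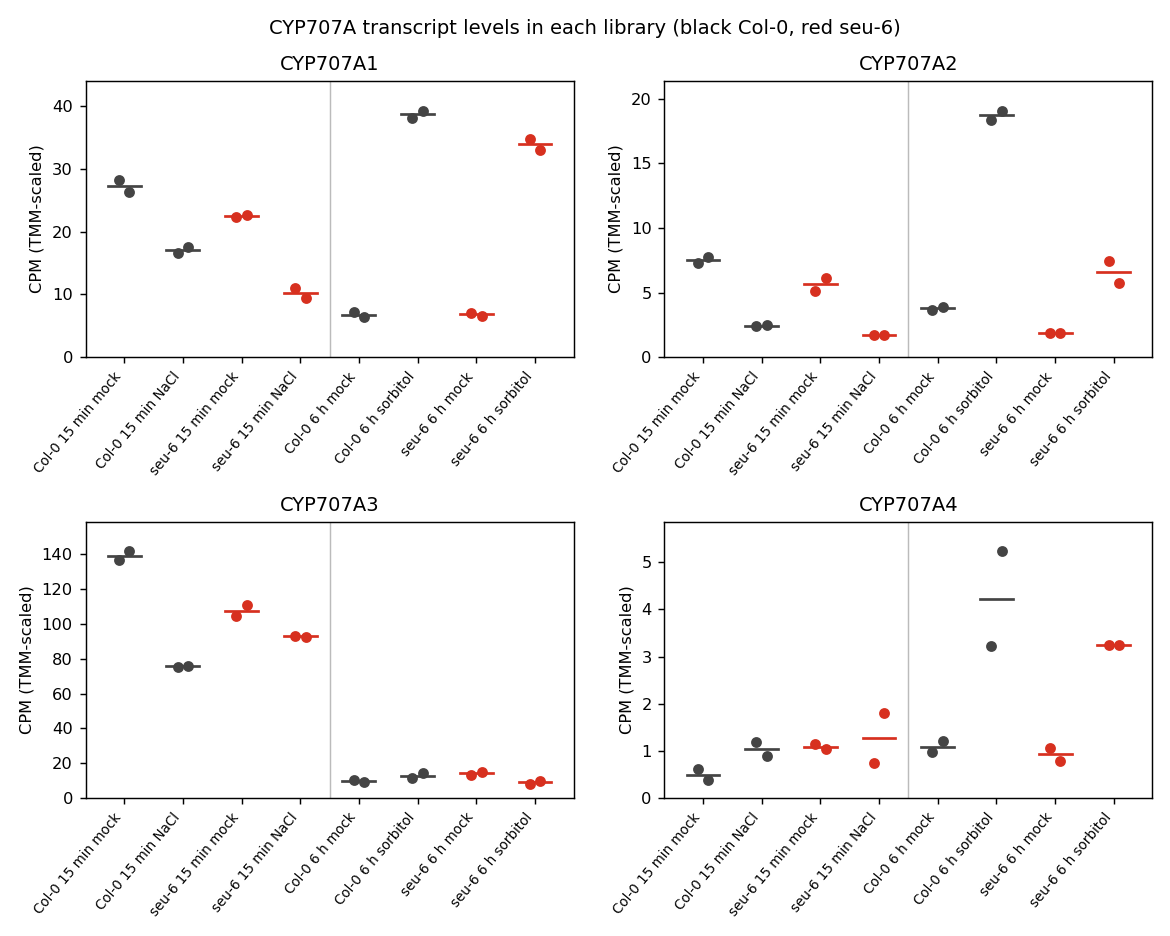
CPM of each CYP707A gene in the 8 groups, 1 panel per gene on its own linear axis, with 1 point per library (2 per group) and a line at the group mean, Col-0 in black and seu-6 in red. CYP707A3 falls from 137 and 142 CPM in the Col-0 15 min mock to between 7.95 and 15.1 CPM in all 6 h libraries. Within each genotype the other members have their highest group mean under sorbitol. For CYP707A2 the libraries of seu-6 under sorbitol overlap both 15 min mocks.

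Within 15 min of 300 mM NaCl, 3 of the 4 CYP707A genes fell in Col-0, where 17.6% of the 22066 genes tested fell and 15.8% rose. CYP707A2 fell by 1.61 ± 0.21 (SE) on the log2 scale (3.06-fold lower, edgeR adjusted p = 3.7e-10). CYP707A3 fell by 0.88 ± 0.043 (1.84-fold lower, adjusted p = 6.9e-32) and CYP707A1 by 0.67 ± 0.096 (1.59-fold lower, adjusted p = 7.8e-09). For all 3, both NaCl libraries lay below both mock libraries. CYP707A4 was at 1.1 ± 0.51, with a 95% interval of 0.08 to 2.11 and an adjusted p of 0.089 by edgeR. Fitted with all 16 libraries it passed the threshold, at 1.1 with an edgeR adjusted p of 0.031, and over all alternatives its adjusted p lay between 0.031 and 0.38.

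The same 3 genes fell in seu-6, where 17.9% of genes fell and 12.0% rose. CYP707A2 fell by 1.72 ± 0.22 (3.29-fold lower, edgeR adjusted p = 3.7e-10) and CYP707A1 by 1.16 ± 0.10 (2.24-fold lower, adjusted p = 5.4e-17). CYP707A3 fell by 0.23 ± 0.043 (1.17-fold lower, adjusted p = 7.4e-06), the smallest of the 3 changes. CYP707A4 was at 0.22 ± 0.47 with an adjusted p of 0.79, and its value turned to -0.55 without seu-6 NaCl replicate 2.

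The genotype difference in the NaCl response passed the test for 2 of the 4 genes, in opposite directions, against 2.59% of genes with a positive and 4.59% with a negative difference. The change of CYP707A3 was less negative in seu-6 by 0.65 ± 0.061 (edgeR adjusted p = 1.2e-14). For this gene seu-6 lay below Col-0 in the mock and above it under NaCl. The change of CYP707A1 was more negative in seu-6, by -0.49 ± 0.14 (edgeR adjusted p = 0.015). That call for CYP707A1 ended without Col-0 mock replicate 2 (-0.44), seu-6 mock replicate 1 (-0.50) or seu-6 mock replicate 2 (-0.48). It also ended without Col-0 NaCl replicate 2 (-0.42) or seu-6 NaCl replicate 2 (-0.37). It held in the 5 alternatives that kept every library, at -0.49 to -0.46. For CYP707A2 the difference was -0.10 ± 0.30, with a 95% interval of -0.71 to 0.50, and for CYP707A4 it was -0.88 ± 0.69, with an interval of -2.26 to 0.50. The CYP707A4 value was -1.65 without seu-6 NaCl replicate 2 and -0.38 without seu-6 NaCl replicate 1, the ends of its range over libraries left out.

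Root and photosynthetic markers moved in the same direction as the CYP707A genes that fell under NaCl. Of 8 root markers, 5 fell in Col-0 and 6 in seu-6, none rose, and their summed level was 156 to 164 CPM in the Col-0 mock, 76.3 to 78.4 CPM in Col-0 under NaCl, 123 to 128 CPM in the seu-6 mock and 45.1 to 50.1 CPM in seu-6 under NaCl. Of 7 photosynthetic markers, 6 fell in Col-0 and 4 in seu-6, none rose, and their summed level was 26903 to 27257 CPM in the Col-0 mock, 22106 to 23097 CPM in Col-0 under NaCl, 33409 to 33450 CPM in the seu-6 mock and 29014 to 30556 CPM in seu-6 under NaCl. Of 5 guard cell markers, 3 rose and none fell in each genotype. For the genotype difference in the NaCl response, 2 of 8 root markers were negative, and no other marker of these lists passed. None of these markers was at 0 in any library. In whole seedlings, fewer cells of a type and less RNA per cell cannot be told apart, and the part of these tissues in the falls was not tested.

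Of 11 synthesis genes, 9 were tested, and 1 rose and 1 fell in each genotype. The riser was NCED3, at 9.30 and 6.83 CPM in the Col-0 mock, 27.2 and 27.5 CPM under NaCl, 6.38 and 6.55 CPM in the seu-6 mock and 15.1 and 15.4 CPM in seu-6 under NaCl. The gene that fell was ABA1, zeaxanthin epoxidase, by 0.23 ± 0.029 in Col-0 and 0.22 ± 0.029 in seu-6. NCED3 rose by 1.76 ± 0.12 in Col-0 (edgeR adjusted p = 2.6e-23) and by 1.22 ± 0.13 in seu-6 (adjusted p = 6.6e-14), so that the main synthesis gene rose while 3 breakdown genes fell in both genotypes. The difference between those rises was -0.54 ± 0.17 (edgeR adjusted p = 0.035). Of 10 genes for ABA conjugation and transport, 9 were tested, with 5 higher and 2 lower in Col-0 and 1 higher and 2 lower in seu-6. DTX50, a transporter that carries ABA out of cells, fell by 1.26 ± 0.065 in Col-0 and by 1.29 ± 0.068 in seu-6. BGLU18, a glucosidase that frees ABA from its glucose ester, rose by 0.47 ± 0.032 in Col-0 and was at 0.027 ± 0.032 in seu-6, with an edgeR adjusted p of 0.58 there, and the test of the difference gave -0.45 ± 0.045 (edgeR adjusted p = 1.9e-13). Of 18 ABA-response genes, 8 rose and 1 fell in Col-0, with a median of 0.25, and 4 rose and 4 fell in seu-6, with a median of -0.05, while the medians of all genes tested were 0.0067 and -0.00067. RD26, a NAC transcription factor, rose by 1.06 ± 0.072 in Col-0 and 1.18 ± 0.074 in seu-6. Among 9 other P450 genes of hormone synthesis from the same clan of enzymes, 4 rose and none fell in Col-0, and 2 rose and none fell in seu-6. CYP90A1, of brassinosteroid synthesis, rose by 0.63 ± 0.036 in Col-0 and by 0.46 ± 0.036 in seu-6.

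After 6 h in 250 mM sorbitol all 4 CYP707A genes were higher in Col-0, where 31.3% of the 21633 genes tested rose and 31.2% fell. CYP707A1 rose by 2.52 ± 0.088 (5.74-fold, edgeR adjusted p = 2.3e-34), CYP707A2 by 2.32 ± 0.14 (5.0-fold, adjusted p = 1.7e-22) and CYP707A4 by 1.97 ± 0.26 (3.93-fold, adjusted p = 2.0e-09). Of all genes tested, 396, CYP707A1 included, had a log2 fold change at least as high as CYP707A1, whatever their adjusted p. CYP707A3 rose by 0.39 ± 0.12 (1.31-fold, edgeR adjusted p = 0.0040). Without Col-0 sorbitol replicate 2 its value was 0.22 and it no longer passed. In the 5 alternatives that kept every library it passed, at 0.38 to 0.40.

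In seu-6, 3 of the 4 rose and 1 fell under sorbitol, where 28.9% of genes rose and 29.0% fell. CYP707A1 rose by 2.33 ± 0.088 (5.02-fold, edgeR adjusted p = 3.2e-32), CYP707A4 by 1.83 ± 0.28 (3.55-fold, adjusted p = 5.2e-08) and CYP707A2 by 1.80 ± 0.16 (3.49-fold, adjusted p = 4.1e-15). CYP707A3 fell by 0.65 ± 0.12 (1.57-fold lower, edgeR adjusted p = 5.9e-06). CYP707A3 was thus the one member whose direction differed between the genotypes: both sorbitol libraries lay above both mocks in Col-0 and below both mocks in seu-6.

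The genotype difference in the sorbitol response was -1.04 ± 0.17 for CYP707A3 (edgeR adjusted p = 5.2e-06), 1 of the 4 genes to pass, against 7.38% of genes with a negative difference and 5.62% with a positive one. For CYP707A2 it was -0.52 ± 0.22, with a 95% interval of -0.95 to -0.08 and an edgeR adjusted p of 0.11. It passed without seu-6 sorbitol replicate 1, at -0.72. In the 5 alternatives that kept every library it did not pass, at -0.52 to -0.51. For CYP707A1 it was -0.19 ± 0.13, with an interval of -0.44 to 0.06, and for CYP707A4 -0.15 ± 0.39, with an interval of -0.92 to 0.63. The seed transcripts of the seu-6 6 h mock, 126 and 128 CPM, stand in this comparison and in the sorbitol response of seu-6. Of 5 guard cell markers, 1 rose and 2 fell under sorbitol in each genotype. Together they summed to 127 to 131 CPM in the Col-0 mock and 91.2 to 93.9 CPM under sorbitol, and to 109 to 111 and 87.8 to 90.3 CPM in seu-6, so that their sum was lower where CYP707A1, CYP707A2 and CYP707A4 were higher. Of the photosynthetic markers, 4 rose and 3 fell in Col-0, and 5 rose and 2 fell in seu-6. Of the root markers, 2 rose and 1 fell in Col-0, and 3 rose and none fell in seu-6. For the genotype difference in the sorbitol response, 6 of 7 photosynthetic, 1 of 8 root and 2 of 5 guard cell markers were positive and none was negative. The part of these tissues in the responses was not tested.

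**Figure D2:**
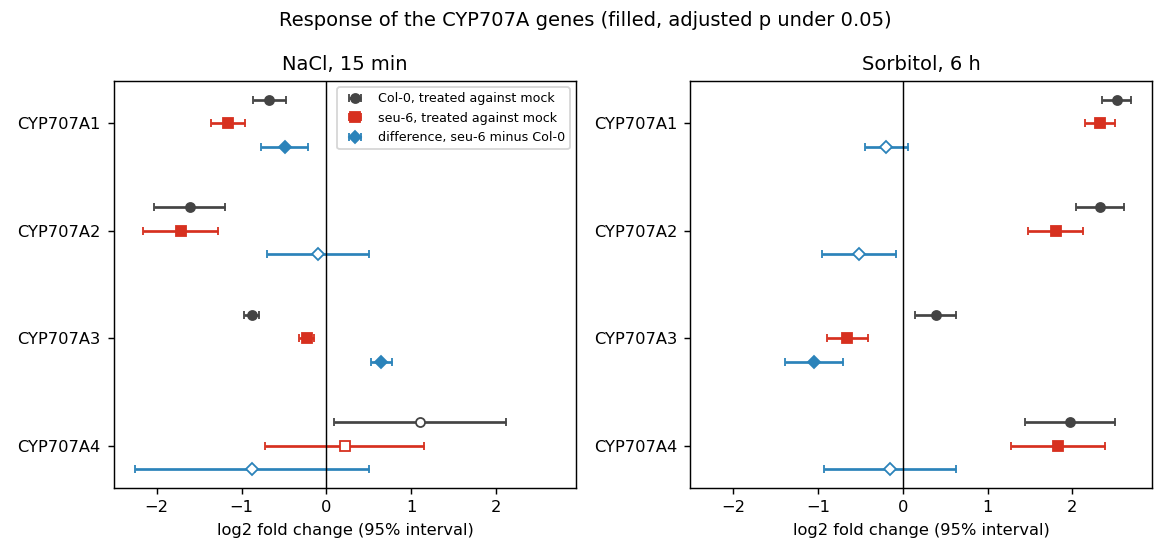
Log2 fold change of each CYP707A gene, treated against mock, with its 95% interval, for NaCl at 15 min and sorbitol at 6 h in Col-0 (black), seu-6 (red) and their difference (blue), filled where the adjusted p is under 0.05. CYP707A3 is the member whose genotypes separate in both treatments, at -0.88 and -0.23 under NaCl and 0.39 and -0.65 under sorbitol.

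Most genes of ABA synthesis and all those examined of ABA response also rose in sorbitol. Of the 9 synthesis genes tested, 8 rose and 1 fell in Col-0, with a median log2 change of 1.46, and 8 rose and 1 fell in seu-6, with a median of 0.89. The medians of all genes tested were -0.0045 and -0.0044. NCED3 went from 3.99 and 4.09 CPM to 97.9 and 103 CPM in Col-0 and from 2.25 and 1.56 CPM to 42.1 and 39.1 CPM in seu-6. That is a rise of 4.65 ± 0.083 in Col-0 (edgeR adjusted p = 3.0e-49) and 4.43 ± 0.099 in seu-6 (adjusted p = 6.5e-44), larger than the change of any CYP707A gene. The difference between those rises was -0.22 ± 0.16 and did not pass. ABA1 rose by 1.83 ± 0.034 in Col-0 and 1.78 ± 0.034 in seu-6. AAO3, the aldehyde oxidase of the last step, rose by 1.46 ± 0.050 in Col-0 and 0.89 ± 0.049 in seu-6. Among the conjugation and transport genes 7 rose and 1 fell in Col-0, and 6 rose and 2 fell in seu-6. BGLU18 rose by 1.70 ± 0.034 in Col-0 and 1.59 ± 0.034 in seu-6, and UGT71B7, a glucosyltransferase that conjugates ABA, by 1.40 ± 0.070 and 1.01 ± 0.070. All 18 response genes rose in each genotype, with medians of 4.11 in Col-0 and 3.56 in seu-6. For 16 of the 18 the rise was smaller in seu-6 by the test of the difference, and for none was it larger. Of the hormone P450 genes of the same clan, 8 were tested, and 4 rose and 1 fell in Col-0 and 5 rose and 2 fell in seu-6.

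**Figure D3:**
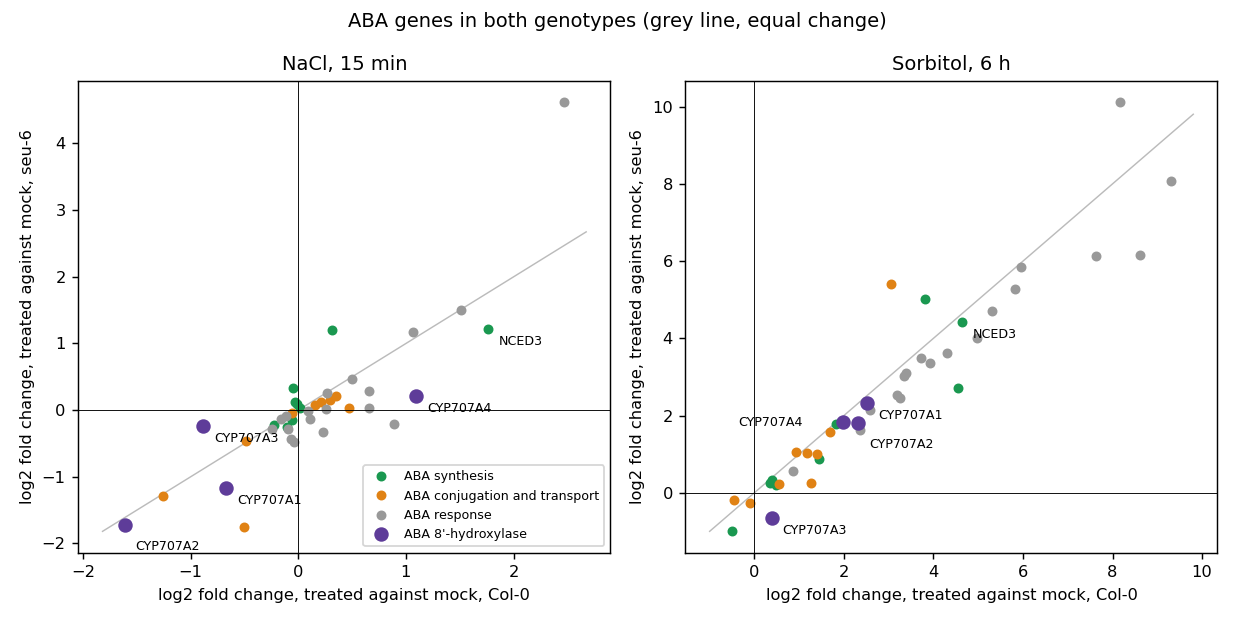
Log2 fold change in seu-6 against that in Col-0 for the CYP707A genes and for tested genes of ABA synthesis, conjugation and transport, and response, under NaCl at left and sorbitol at right. The grey line marks equal change, and under sorbitol CYP707A3, at 0.39 in Col-0 and -0.65 in seu-6, lies apart from the other breakdown genes and NCED3.

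Between genotypes in the same medium, CYP707A2 was the member lower in seu-6 at the 6 h time in both media. In the 6 h mock it was lower by -0.99 ± 0.17 (1.98-fold, edgeR adjusted p = 3.3e-06), and under sorbitol by -1.50 ± 0.13 (2.84-fold, adjusted p = 1.1e-14). The sorbitol comparison does not use the 6 h mock libraries, but seed transcripts differed there too. Of 5 seed markers, 3 were higher in seu-6 under sorbitol, beside 17.5% of all genes tested. Their sum was 1.32 to 1.49 CPM in seu-6 and 0.120 to 0.284 CPM in Col-0. It was 0.974 to 1.37 CPM in seu-6 and 0.0493 to 0.201 CPM in Col-0 in the 15 min mock. Under NaCl it was 0.232 to 0.457 and 0.0938 to 0.148 CPM. The part of these transcripts in the genotype differences was not tested. In the 15 min mock CYP707A2 was at -0.41 ± 0.20 and under NaCl at -0.52 ± 0.23, with edgeR adjusted p of 0.11 and 0.088.

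CYP707A3 changed sides among the 4 combinations of medium and time, also between the 2 mocks. It was lower in seu-6 by -0.37 ± 0.042 in the 15 min mock (edgeR adjusted p = 4.2e-12), higher by 0.27 ± 0.044 under NaCl (adjusted p = 2.2e-07), higher by 0.53 ± 0.12 in the 6 h mock (adjusted p = 3.7e-04) and lower by -0.51 ± 0.12 under sorbitol (adjusted p = 5.9e-04). The last of these no longer passed without Col-0 sorbitol replicate 2, at -0.35. It passed in the 5 alternatives that kept every library, at -0.52 to -0.51. In each of the 4 combinations the 2 genotypes did not overlap. The 2 mocks had the same medium but differed in time, seedling age and experiment, which cannot be told apart. Seed transcripts also stood at 126 and 128 CPM in the seu-6 6 h mock, and their part was not tested.

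CYP707A1 was lower in seu-6 under NaCl by -0.77 ± 0.10 (edgeR adjusted p = 1.4e-09). In the 15 min mock it was lower by -0.28 ± 0.094 (edgeR adjusted p = 0.018), a call that ended without Col-0 replicate 1 (-0.24), seu-6 replicate 1 (-0.27) or seu-6 replicate 2 (-0.29) of that mock, with adjusted p between 0.011 and 0.15 over all alternatives. Under sorbitol it was at -0.19 ± 0.076 with an edgeR adjusted p of 0.047, and it missed the threshold with DESeq2 (0.091), with no filter on low counts (0.053), with all 16 libraries in the fit (0.071) and without any one of the 4 sorbitol libraries (values from -0.16 to -0.23). Over all alternatives that adjusted p lay between 0.037 and 0.24. In the 6 h mock the difference was 0.0043 ± 0.10, with an interval of -0.20 to 0.21.

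CYP707A4 did not pass in any of the 4 genotype comparisons. It was at 1.15 ± 0.51 in the 15 min mock, with an edgeR adjusted p of 0.089, and with all 16 libraries in the fit at 1.15 with 0.029, over a range of 0.029 to 0.38. Its difference was 0.27 ± 0.47 under NaCl, -0.23 ± 0.30 after 6 h of mock and -0.38 ± 0.24 after sorbitol. The 6 h mock value was -0.47 and -0.024 without seu-6 replicates 1 and 2 of that mock. Members lower in seu-6 numbered 2 of 4 in the 15 min mock, 1 under NaCl, 1 after 6 h of mock and 3 after sorbitol, beside 12.9%, 16.1%, 11.8% and 17.4% of all genes tested. The count higher was 0, 1, 1 and 0, beside 14.0%, 13.6%, 16.0% and 17.5%.

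Some genes of ABA synthesis and response, and some tissue markers, also differed between the genotypes. Of all genes tested, 14.0% were higher and 12.9% lower in seu-6 in the 15 min mock, and 13.6% and 16.1% under NaCl. In the 6 h mock 16.0% were higher and 11.8% lower, and under sorbitol 17.5% and 17.4%. Low counts of synthesis genes and guard cell markers are therefore not read as results about those lists. NCED3 was lower in seu-6 by -0.87 ± 0.11 with NaCl, -1.09 ± 0.14 after 6 h of mock and -1.31 ± 0.063 after sorbitol, and was at -0.32 ± 0.13 in the 15 min mock with an edgeR adjusted p of 0.058. Of the 9 synthesis genes tested, 2 were higher and 0 lower in the 15 min mock, and 3 higher and 1 lower under NaCl. In the 6 h mock 2 were higher and 2 lower. Under sorbitol 4 synthesis genes were lower and 1 was higher. All 18 response genes were lower there, with a median of -0.92. Root markers were lower in seu-6 in the 15 min experiment, 5 of 8 in the mock and 7 of 8 under NaCl, and in the 6 h experiment 0 of 8 were lower in either medium and 2 were higher under sorbitol. Photosynthetic markers were higher in seu-6 in the 15 min experiment, 5 of 7 in the mock and 6 of 7 under NaCl, with none lower. At 6 h, 2 were higher and 5 lower in the mock, and 3 were higher and 3 lower under sorbitol. Guard cell markers numbered 1 higher of 5 in the 15 min mock, 1 lower under NaCl, 2 lower after 6 h of mock and 1 lower after sorbitol. The part of these tissues in the genotype differences was not tested.

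The largest changes of CYP707A3 lay between the mocks of the experiments. From the 15 min to the 6 h mock it was lower by -3.84 ± 0.075 in Col-0 (14.3-fold, edgeR adjusted p = 3.5e-40) and by -2.93 ± 0.072 in seu-6 (7.65-fold, adjusted p = 6.7e-36). Of the 22582 genes tested, 475, CYP707A3 included, had a log2 fold change at least as low in Col-0, whatever their adjusted p. CYP707A1 was lower by -2.0 ± 0.096 in Col-0 and -1.72 ± 0.098 in seu-6, and CYP707A2 by -0.99 ± 0.17 and -1.57 ± 0.18. Thus 3 of the 4 were lower at 6 h in each genotype, beside 30.5% of genes in Col-0 and 29.2% in seu-6. CYP707A4 was higher by 1.15 ± 0.41 in Col-0 (edgeR adjusted p = 0.011), where 32.1% of genes were higher. It missed the threshold without Col-0 15 min mock replicate 2 (0.80) or Col-0 6 h mock replicate 2 (0.97), with adjusted p between 0.0090 and 0.16 over all alternatives. In seu-6, where 31.1% of genes were higher, it was at -0.23 ± 0.38, and at -0.47 and -0.021 without seu-6 6 h mock replicates 1 and 2. The mocks differ in time in the medium, in seedling age and in experiment, which cannot be told apart. They are also the controls of the treatments, so the fall between mocks and the response to each treatment share libraries.

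The same contrast in Col-0 had 6 synthesis genes lower and 1 higher, 8 of the conjugation and transport genes lower and 1 higher, and 13 response genes lower and 3 higher. DTX50 was lower by -2.51 ± 0.081 and NCED3 by -1.0 ± 0.12. Of the 8 root markers, 6 were lower at 6 h in each genotype, and none was higher. Photosynthetic markers numbered 4 higher and 3 lower in Col-0, and 1 higher and 5 lower in seu-6, and guard cell markers 3 higher and 1 lower, and 2 higher and 1 lower. Among the other hormone P450 genes 5 were higher and 1 lower, with CYP85A2, of brassinosteroid synthesis, higher by 2.1 ± 0.11.

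Per kilobase of annotated exon, which allows levels of different genes to be added, the family summed to 84.6 ± 1.15 CPM per kb (SD, n = 2) in the Col-0 15 min mock and 66.4 ± 2.52 in that of seu-6. Under NaCl it summed to 46.8 ± 0.283 in Col-0 and 51.8 ± 0.457 in seu-6, in the 6 h mock to 10.2 ± 0.358 and 11.5 ± 0.450, and under sorbitol to 34.9 ± 2.41 and 25.0 ± 0.437. The sum was thus lower under NaCl and higher under sorbitol than in the matching mock in every library of both genotypes. It was highest, in each genotype, in the 15 min mock.

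The make-up of that sum changed as well. In Col-0, CYP707A3 held 80.6% of it in the 15 min mock, 79.2% with NaCl, 46.7% in the 6 h mock and 17.7% with sorbitol. CYP707A1 held 15.2%, 17.3%, 31.4% and 52.4% in the same groups, and CYP707A2 held 3.81%, 2.25%, 15.9% and 23.0%. In seu-6 CYP707A3 held 79.4%, 87.9%, 60.1% and 17.4%, and CYP707A2 held 11.3% under sorbitol. CYP707A3 was therefore the most abundant member in the 15 min groups and both 6 h mocks, and CYP707A1 the most abundant under sorbitol in both genotypes. CYP707A4 held between 0.33% and 7.42% of the group sums.

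**Figure D4:**
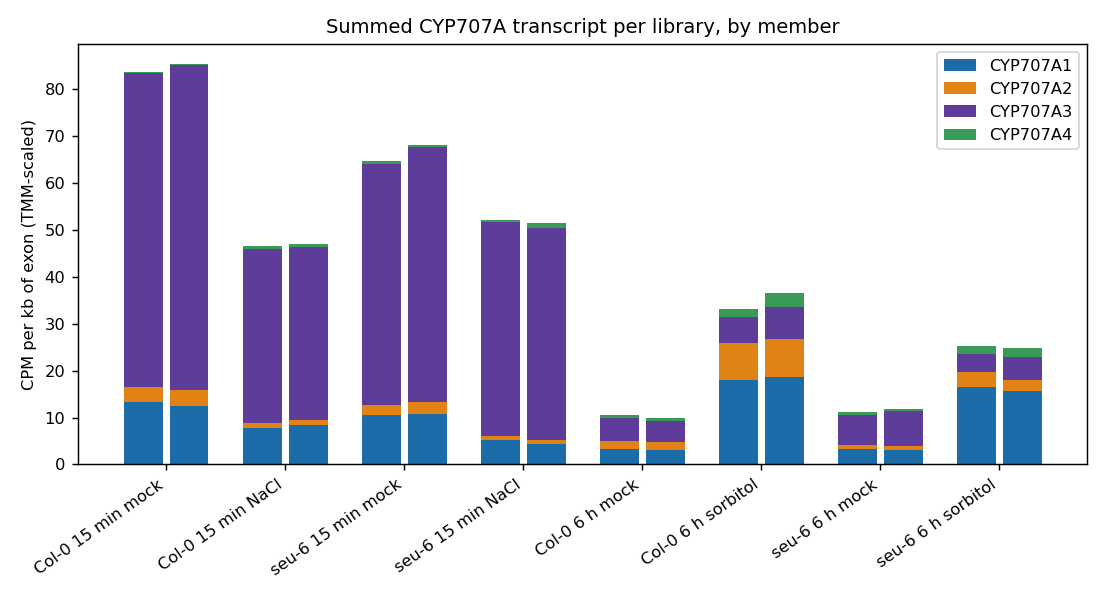
Level of the CYP707A genes in CPM per kb of exon, stacked by gene, with 1 bar for each of the 16 libraries. The mean sum is 84.6 in the Col-0 15 min mock and 10.2 in the 6 h mock, and the mean CYP707A3 share goes from 80.6% in the first to 17.7% under sorbitol.

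Across the 16 libraries the members did not share 1 pattern. Pearson's r of log2 CPM was 0.80 between CYP707A1 and CYP707A2 and 0.12 between CYP707A1 and CYP707A3, the pair closest in coding sequence. It was -0.21 between CYP707A2 and CYP707A3 and -0.60 between CYP707A3 and CYP707A4. These values describe libraries that share 2 experiments, each with 2 media, and replicates of a group are not separate conditions.

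Among 8394 genes that varied across the groups, those most like each member over the 16 libraries were named by the same measure. For CYP707A3 they were AT1G21500, WRR4 (an immune receptor), DDF1 (a transcription factor of the CBF family), EXLA1 (an expansin-like protein) and AT5G35735, with r from 0.989 to 0.994. For CYP707A1 they were ZW9, AT5G42200, PELPK1, STR18 and AT5G37990, with r from 0.966 to 0.977. For CYP707A2 they were VTC2 (an enzyme of ascorbate synthesis), AT1G30700, AT3G10910, AT5G43450 and LHCB2.1 (a light-harvesting protein), with r from 0.936 to 0.986. For CYP707A4 they were SEH (an epoxide hydrolase), AT3G04000, AT2G05540, ACD1 (an enzyme of chlorophyll breakdown) and AT1G07040, with r from 0.925 to 0.937. No CYP707A gene was among those most like another. By Spearman's rho the lists kept 0 of 5 genes for CYP707A1, 2 for CYP707A2, 1 for CYP707A3 and 0 for CYP707A4.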

How the data were processed

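The authors deposited raw counts of reads per gene, 1 table for each of the 16 libraries. Per the submitters' processing notes, the tools included HISAT2 2.2.1, HTSeq 0.13.5 and DESeq2, with the build TAIR10. The strand setting is not given in the sources used here, nor is the annotation release. The 5 summary lines of each table, 8.78% to 12.7% of reads, were left out. Libraries of each experiment were fitted together (8 libraries, 1 mean per group, no block, 4 residual degrees of freedom) with edgeR 4.0.16 in R 4.3.3: TMM scaling, filterByExpr and the robust quasi-likelihood F test, with Benjamini-Hochberg adjustment over all genes tested. Mocks were compared, and levels scaled, in a fit of all 16 libraries. SE is the log2 fold change over the root of F. The test shares information on spread among all genes. The degrees of freedom behind its p-values and intervals therefore exceed the residual ones. The labels do not say that replicates came from separate plantings, so p-values measure the spread between these samples, which may be technical. Replicate pairs differed by more than counting error (chi-square per degree of freedom 3.28 to 8.74). Same-numbered libraries did not deviate together (r from -0.016 to 0.021).

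The count tables carry no coordinates. Names, exon lengths and windows of 250 bases before gene starts were read from the RefSeq TAIR10.1 genome and annotation, and 32548 of 32833 loci had a symbol there. Coding sequences were aligned globally. The members, the 78 genes of the lists and the tests were chosen with earlier results of these data known. The rule for named genes took the 4 members, NCED3, up to 4 genes per list by smallest adjusted p in a comparison, and the 5 genes most like each member by Pearson's r, with a mean of at least 1 CPM and a range of group means of at least 1 on the log2 scale. The text prints part of these. Alternatives were the test of DESeq2 1.42.0, edgeR with DESeq2 size factors, no low-count filter, all 16 libraries in 1 fit, the replicate number as a block, and each library left out in turn. Ranges of adjusted p over all alternatives pool DESeq2's test with edgeR's. The fits were tested on simulated counts.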

Additional observations from a re-analysis of the deposited data

Results flagged for a closer look

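For 3 results the test of the difference between the genotypes' responses passed. CYP707A3 fell under NaCl by less in seu-6 than in Col-0, a difference of 0.65 on the log2 scale, and it passed in all 13 alternatives. CYP707A3 under sorbitol rose in Col-0 and fell in seu-6, a difference of -1.04, and this difference also passed in all 13. The rise in Col-0 alone, 0.39, did not pass in every alternative and was 0.22 without Col-0 sorbitol replicate 2. The 5 seed transcripts, at 126 and 128 CPM in the seu-6 6 h mock, stand in the difference and their part was not tested. CYP707A1 fell under NaCl by more in seu-6, a difference of -0.49, which passed in 8 of 13 alternatives and missed in 5 that each leave out 1 library.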

How the results depend on the processing

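For the 48 results on single members, 644 alternative values kept their direction and their side of the threshold, 19 lost the call, 3 gained one and 14 changed sign, and the cause was not tested. With all 16 libraries in 1 fit, CYP707A4 passed for NaCl in Col-0 (1.1) and for seu-6 against Col-0 in the 15 min mock (1.15), and CYP707A1 under sorbitol missed between genotypes (-0.19), as it did with DESeq2 (-0.19) and with no filter (-0.19). CYP707A1 between genotypes in the 6 h mock, at 0.0043, turned to -0.00242 with DESeq2 and to -0.00245 with its size factors. Leaving out each library in turn gave CYP707A1 ranges of -0.33 to -0.24 between genotypes in the 15 min mock, -0.062 to 0.076 in the 6 h mock and -0.23 to -0.16 under sorbitol, and of -0.62 to -0.37 for the genotype difference in the NaCl response. CYP707A2 ranged from -0.23 to 0.033 for that difference and from -0.72 to -0.33 for the sorbitol one. CYP707A3 ranged from 0.22 to 0.54 for sorbitol in Col-0 and from -0.68 to -0.35 between genotypes under sorbitol. CYP707A4 ranged from -0.55 to 0.71 for NaCl in seu-6, -0.50 to 0.76 between genotypes under NaCl, -0.69 to 0.0081 under sorbitol, -0.45 to 0.25 for the genotype difference in the sorbitol response and 0.80 to 1.5 between the Col-0 mocks. There, the lone library of a group is assumed to vary as the other groups do. The replicate number as a block, shared only as a number, changed no call of a member: CYP707A3 under NaCl in Col-0 stayed at -0.88, and the genes called for NaCl in Col-0 went from 7375 to 7341. All 170 alternative counts of genes called were within 1.5 times the main count. On total counts in place of TMM, 14 of 32 group levels moved by more than 1 SD. Depth limits CYP707A4 most, at 15 to 221 counts per library.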
